A study of Mus musculus with 12 samples.

Results

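The mitochondrial fusion and fission genes taken here are 10 genes: Mfn1, Mfn2, Opa1, Dnm1l, Fis1, Mff, Mief1, Mief2, Oma1 and Yme1l1. They were picked by symbol, and 10 of 10 were found among 55367 symbols in the RNA-seq values of isolated single muscle fibers from the extensor digitorum longus (EDL), a fast muscle of the mouse hindlimb. Each of the 10 also passed the filter on low values. Fibers from young mice (3–4 months old) formed the Young group, and fibers from aged mice (26–28 months old) were divided by staining with Fluo-4, a fluorescent Ca2+ indicator, into a Fluo-4 normal and a Fluo-4 abnormal group, the latter with aberrantly bright staining. There were 4 samples in each group, numbered 1 to 4. The study describes C57BL/6J mice and reports the abnormal fibers in aged males, and it separated the fibers under a fluorescence stereomicroscope, so the abnormal group holds fibers chosen by their stain and not a treated group. How many fibers or mice went into a sample is not given in the sources used here, so the p-values measure the spread between these samples, which may be technical.

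Mitochondria continuously fuse and divide. The mitofusins Mfn1 and Mfn2 are GTPases that join outer membranes, and Opa1 is the GTPase that joins inner membranes and shapes the cristae. The inner-membrane proteases Oma1 and Yme1l1 cut Opa1 into its short forms. Division is carried out by the dynamin-related GTPase encoded by Dnm1l, which is drawn to the outer membrane by the adaptor proteins of Mff, Mief1, Mief2 and Fis1. In skeletal muscle, where mitochondria lie packed between and beneath the contractile filaments, loss of fusion proteins is known to cause mitochondrial and muscle defects.

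The values are transcript abundances (TPM), which are divided by transcript length and scaled to 1000000 per sample, so levels can be compared between genes. Between 16841 and 17936 symbols were above 0 in a sample, and read depth was not used here. The fibers were of the fast type in every sample. Myh4, the myosin heavy chain of the fastest fibers, made up 96.9–98.6% of the TPM of Myh4, Myh1, Myh2 and Myh7 in Young samples, 93.7–99.2% in Fluo-4 normal samples and 98.9–99.7% in Fluo-4 abnormal samples. Myh7, the slow myosin, was at most 0.0019%. Mitochondrially-encoded genes took 7.35–8.01% of the TPM in Young, 8.75–10.9% in Fluo-4 normal and 4.75–6.92% in Fluo-4 abnormal samples, which changes what is left for all other genes. Of 7 lists of 4 markers for other cells, none had a gene that passed the test between abnormal and normal fibers, beside 9.35% of all genes. The Schwann cell list had 1, higher, between abnormal and young fibers, beside 8.50% of all genes in either direction. In the immune list 3 of the 4 markers were tested. The summed TPM of these lists overlapped between the aged groups, from 23.1–77.9 in normal and 13.2–58.4 in abnormal samples for fibroblasts to 118–480 and 44.3–235 for erythroid cells. No marker was at 0 in all samples.

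Mfn1 was the member that passed the test. Its mean level in the Fluo-4 abnormal fibers fell by 27.5% from that of the Fluo-4 normal fibers and fell by 32.4% from that of the young fibers, while its partner Mfn2 did not pass in either comparison. The ratio of Mfn2 to Mfn1, taken up with these levels known, was higher in every abnormal sample than in every other sample. Its adjusted p-value was 0.129 against each of the other groups (exact permutation, 9 ratio tests). How many other gene pairs separate in this way was not determined. The call of Mfn1 against normal fibers was lost in 17 of 22 alternatives, and that against young fibers in 5 of 22. Against normal fibers it was lost with the 2 aged groups alone, without (limma, adjusted p = 0.145) and with the replicate block (adjusted p = 0.0746). It was also lost with the Myh4 share as a covariate (adjusted p = 0.604), which went largely with the group. None of the other 9 members passed the test in any of the 3 comparisons, and no member differed 2-fold between group means.

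Mfn1 lies on chromosome 3 (GRCm39, 32583599–32645888, plus strand) and has 18 exons in its canonical transcript. Its TPM was 107, 120, 116 and 115 in Young samples 1 to 4. It was 81.7, 132, 106 and 107 in Fluo-4 normal samples 1 to 4, and 73.8, 87.4, 84.8 and 62.8 in Fluo-4 abnormal samples 1 to 4. All 4 abnormal samples were below all 4 young samples, and they were below the normal samples except normal sample 1, which at 81.7 TPM lay within the abnormal range. The group means were 114 ± 5.42 TPM in young, 106.5 ± 20.4 TPM in normal and 77.2 ± 11.2 TPM in abnormal fibers (SD, n = 4 each).

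Between abnormal and normal fibers, Mfn1 changed by -0.45 on the scale of log2(TPM + 1), with a standard error of 0.13 and a 95% interval of -0.73 to -0.17 (limma, adjusted p = 0.0452 over 14428 genes). This was 1 of 10 members called at an adjusted p-value under 0.05 in either direction, beside 9.35% of all genes tested, and 1 of 10 called lower, beside 1.99% of all genes, so the count called in either direction was near the background. The aged samples with the same number deviated together. With the number as a block, in a limma fit of the 2 aged groups alone, the adjusted p-value of Mfn1 was 0.0746, above the threshold of 0.05. Those 2 groups without the block gave 0.145, so on the same samples the block lowered the value. Abnormal was below normal in 4 of 4 pairs by 0.14, 0.59, 0.32 and 0.75 on that scale. The call was also lost when any of 11 of the 12 libraries was left out (adjusted p = 0.0631 to 0.121), whereas without normal sample 1 the change was -0.57 (adjusted p = 0.0135). A model that held the Myh4 share, without the block and with all samples, gave -0.14 (limma, adjusted p = 0.604). That share was 98.9–99.7% in abnormal samples, and of the other samples only normal sample 1 (99.2%) lay in this range. Share and group therefore largely coincide, and this fit separates them poorly.

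Between abnormal and young fibers, Mfn1 changed by -0.57 with a standard error of 0.13 and a 95% interval of -0.85 to -0.29 (limma, adjusted p = 0.0171). It was again 1 of 10 members called, where 8.50% of all genes were called in either direction, near the share of the members, and 2.41% were called lower. With the Myh4 share as a covariate the change was -0.41 (adjusted p = 0.0455). Leaving out young sample 2, 3 or 4 or abnormal sample 4 raised the adjusted p-value to 0.0561, 0.0518, 0.0551 and 0.0597, respectively. Between normal and young fibers the change of Mfn1 was -0.12 (limma, adjusted p = 0.766), and without normal sample 1 it was 8e-04.

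Mfn1 overlaps Gnb4 on the opposite strand over 4740 exon bases, 54.7% of the transcript. The library kit does not keep the strand, so reads there cannot be assigned. Gnb4, a G protein beta subunit gene, had a mean of 0.745 TPM.

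Mfn2 lies on chromosome 4 (147955508–147989585, minus strand, 19 exons) and has no near copy among the annotated transcripts. Its TPM was 164, 178, 185 and 148 in Young samples, 118, 177, 165 and 157 in Fluo-4 normal samples and 154, 205, 171 and 151 in Fluo-4 abnormal samples, in the order of their numbers. The 3 groups overlapped, with the lowest value in normal sample 1 and the highest in abnormal sample 2. Between abnormal and normal fibers its change was 0.15 with a 95% interval of -0.13 to 0.42 (limma, adjusted p = 0.503), and between abnormal and young fibers it was 0.0089 with an interval of -0.27 to 0.28 (adjusted p = 0.984). The sign of both differences turned when samples were rescaled by trimmed means (TMM-type factors), to -0.065 and -0.14. These intervals come from the main fit. They leave room for changes of Mfn2 in either direction, but not for one of the size measured for Mfn1 there. Over 22 alternatives against normal fibers, the change of Mfn2 ranged from -0.065 to 0.40 and that of Mfn1 from -0.66 to -0.14. The comparison of their sizes is therefore limited to the main fit.

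**Figure D1:**
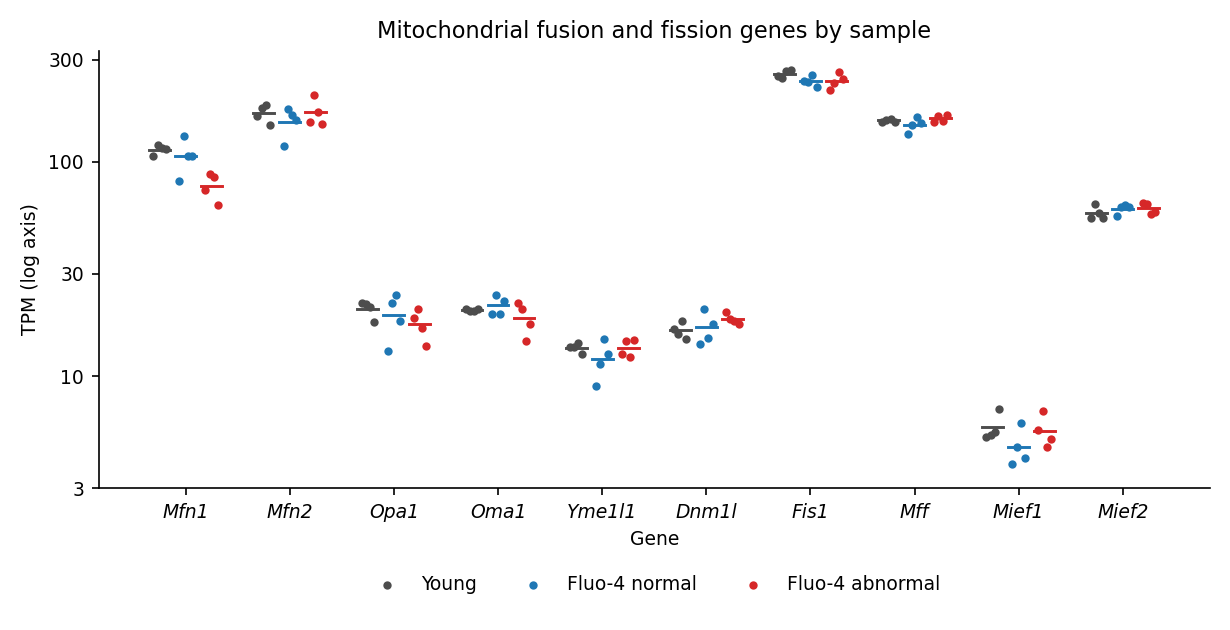
TPM of each fusion and fission gene on a log axis, with a point for each of 4 samples per group and a horizontal line at the group mean. The Mfn1 values of Fluo-4 abnormal fibers (62.8 to 87.4 TPM) lie below all young values (106.8 to 119.7 TPM), while the groups overlap for the other 9 genes.

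Mfn1 passed the test in the main fit and Mfn2 did not, which does not by itself establish that their changes differ. The 250 bases before the annotated start of each (GRCm39 sequence, GENCODE vM39 canonical transcripts) are shown to let their letters be compared. They were searched on both strands for 5 motifs, which are written out here with N for any base: TNAAGGTCA for estrogen-related receptors, the motif of NRF1, CCGGAAGT for GABP, TGACGTCA for CREB-type factors and AAGATGGC for YY1, each a regulator of mitochondrial genes. Capitals mark a match, in the direction of transcription.

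Mfn1, chr3:32583349-32583598, plus strand: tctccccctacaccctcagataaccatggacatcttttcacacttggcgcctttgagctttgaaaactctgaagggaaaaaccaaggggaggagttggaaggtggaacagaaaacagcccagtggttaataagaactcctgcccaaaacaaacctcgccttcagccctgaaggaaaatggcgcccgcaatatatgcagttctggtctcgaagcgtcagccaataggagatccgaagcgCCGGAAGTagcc

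Mfn2, chr4:147989586-147989835, minus strand: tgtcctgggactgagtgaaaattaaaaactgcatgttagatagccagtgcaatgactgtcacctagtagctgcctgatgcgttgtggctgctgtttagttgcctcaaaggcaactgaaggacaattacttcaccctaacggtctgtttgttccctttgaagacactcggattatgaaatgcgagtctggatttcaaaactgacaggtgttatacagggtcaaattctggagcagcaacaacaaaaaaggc

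The Mfn1 window holds the GABP letters 12 to 5 bases before the start, and the Mfn2 window holds none of the 5 motifs. The GABP letters are in 3.61% of 13993 windows of tested genes. Over the other members, the NRF1 motif is before Opa1 (0.893% of windows) and TGACGTCA is before Yme1l1 (1.97%), while TNAAGGTCA (0.808%) and AAGATGGC (1.69%) are before none of the 10. The G and C content is 50.8% for Mfn1 and 44.0% for Mfn2, against a median of 56.4% over all windows. A match describes the letters only, and no binding was measured.

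The ratio of Mfn2 to Mfn1 within a sample does not depend on how samples are scaled, and was taken up with these levels known. The Young samples had ratios of 1.53, 1.48, 1.60 and 1.29, the Fluo-4 normal samples 1.45, 1.34, 1.56 and 1.47, and the Fluo-4 abnormal samples 2.09, 2.35, 2.01 and 2.40. Every abnormal sample was above every other sample, and young and normal samples overlapped throughout. The share of other gene pairs that separate in this way was not determined. Of single genes, 14.0% did not overlap between abnormal and normal fibers and 16.2% between abnormal and young fibers. Normal sample 1, whose Mfn1 level lay among the abnormal samples, had a ratio within the normal range, and its Mfn2 was also the lowest measured. Expressed as a share of mitofusin TPM, Mfn1 made up 38.5–43.6% in young, 39.1–42.7% in normal and 29.4–33.2% in abnormal fibers.

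On the log2 scale the ratio was 1.14 ± 0.13 in abnormal, 0.54 ± 0.09 in normal and 0.56 ± 0.13 in young fibers (SD, n = 4 each). The difference was 0.60 between abnormal and normal and 0.58 between abnormal and young fibers, each with an exact two-sided permutation p = 0.0286, the smallest that 70 arrangements allow, and 0.129 after adjustment over 9 ratio tests. The ratio was higher in abnormal fibers in 4 of 4 same-numbered aged pairs. With the Myh4 share as a covariate the differences were 0.55 and 0.56. Normal and young fibers differed by -0.020 (exact permutation p = 0.829).

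**Figure D2:**
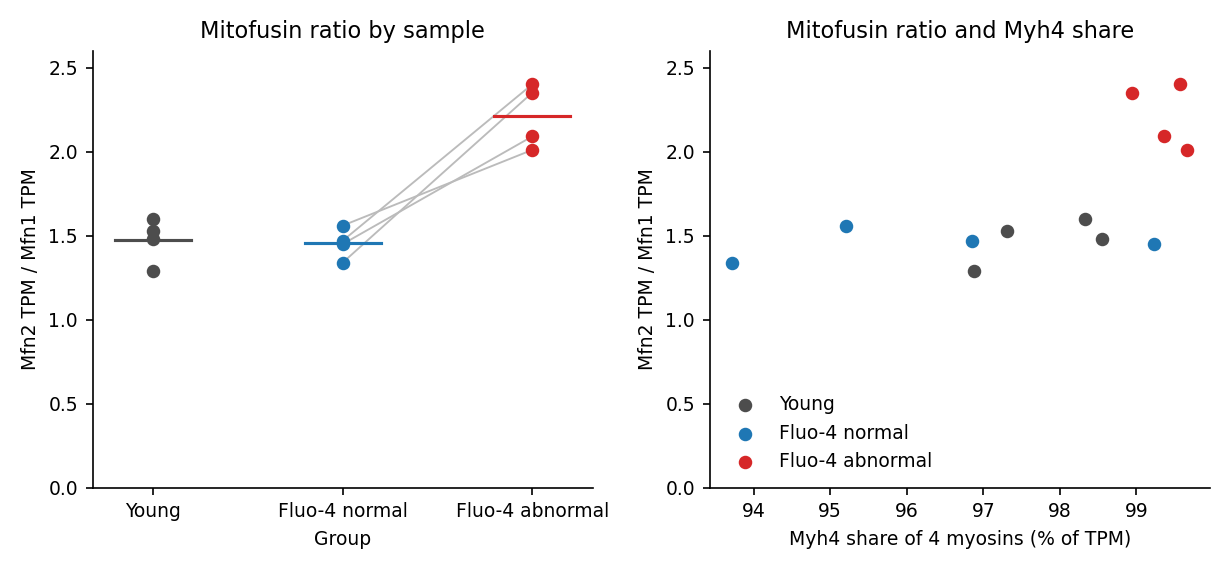
Left, Mfn2 TPM divided by Mfn1 TPM in each sample, with horizontal lines at the group means and grey lines joining aged samples of the same number. Right, the same ratio against the Myh4 share of the TPM of 4 myosins: the abnormal samples lie at ratios of 2.01 to 2.40 and Myh4 shares of 98.9–99.7%, and normal sample 1 lies at a share of 99.2% with a ratio of 1.45.

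The inner-membrane GTPase gene Opa1 (chromosome 16, 29398108–29473858, plus strand, 29 exons) was expressed far below the mitofusins. Its TPM was 21.9, 21.8, 21.0 and 18.0 in Young, 13.1, 22.0, 24.0 and 18.1 in Fluo-4 normal and 18.7, 20.7, 16.8 and 13.8 in Fluo-4 abnormal samples. The lowest and the highest value were both in the normal group, and the groups overlapped. The change between abnormal and normal fibers was -0.11 with a standard error of 0.17 (limma, adjusted p = 0.702), and it became 0.28 in a model that held the Myh4 share.

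Of the proteases that cut Opa1, Oma1 is the stress-activated enzyme and Yme1l1 the constitutive, ATP-dependent one. Oma1 (chromosome 4, 103170737–103229065, plus strand, 9 exons) had 20.5, 20.1, 20.1 and 20.5 TPM in Young, 19.6, 23.9, 19.5 and 22.5 TPM in Fluo-4 normal and 22.0, 20.5, 14.6 and 17.5 TPM in Fluo-4 abnormal samples. Yme1l1 (chromosome 2, 23046034–23089281, plus strand, 19 exons) had 13.7, 13.7, 14.3 and 12.7 TPM in Young, 9.03, 11.5, 14.9 and 12.8 TPM in Fluo-4 normal and 12.7, 14.6, 12.3 and 14.8 TPM in Fluo-4 abnormal samples. For both genes the 4 young samples lay close together and the aged samples spread on either side of them. Between abnormal and normal fibers Oma1 differed by -0.20 (limma, adjusted p = 0.308) and Yme1l1 by 0.18 (adjusted p = 0.426), and neither passed the test. The log2 ratio of Oma1 to Yme1l1 was 0.45 ± 0.26 in abnormal and 0.85 ± 0.33 in normal fibers (SD, n = 4), lower in 4 of 4 same-numbered pairs, but the groups overlapped and the exact permutation p was 0.114.

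The division GTPase gene Dnm1l (chromosome 16, 16128677–16176904, minus strand, 18 exons) had 16.7, 15.8, 18.1 and 14.9 TPM in Young, 14.2, 20.7, 15.1 and 17.6 TPM in Fluo-4 normal and 20.0, 18.5, 18.1 and 17.5 TPM in Fluo-4 abnormal samples. The highest value was in normal sample 2, and the groups overlapped. Its change was 0.14 between abnormal and normal (limma, adjusted p = 0.476) and 0.17 between abnormal and young fibers (adjusted p = 0.368). The value is uncertain, because up to 3236 bases of Dnm1l, 59.4% of its transcript, match transcripts of Yars2, a mitochondrial tRNA synthetase gene on the opposite strand with a mean of 20.4 TPM. In all, 24 other genes share at least 100 bases with Dnm1l at 95% identity or more.

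Among the adaptors, Fis1 (chromosome 5, 136982101–136995089, plus strand, 5 exons) was the most highly expressed member, above 97.4% of tested genes. Its TPM was 252, 248, 265 and 267 in Young, 238, 237, 254 and 224 in Fluo-4 normal and 217, 234, 263 and 244 in Fluo-4 abnormal samples. The groups overlapped, and the change between abnormal and normal fibers was 0.0045 with a 95% interval of -0.14 to 0.15 (limma, adjusted p = 0.986). Under trimmed-mean scaling it was -0.21.

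Mff (chromosome 1, 82702582–82730684, plus strand, 11 exons), the main adaptor for division in many cells, had 154, 158, 159 and 154 TPM in Young, 135, 149, 163 and 152 TPM in Fluo-4 normal and 154, 163, 155 and 166 TPM in Fluo-4 abnormal samples. It varied little, with group means between 149 and 160 TPM (159.6 ± 6.02 TPM, SD, n = 4, in abnormal fibers). The change between abnormal and normal fibers was 0.098 with a standard error of 0.06 (limma, adjusted p = 0.357), and trimmed-mean scaling turned its sign (-0.11).

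The paralogs Mief1 and Mief2, whose proteins bind the division GTPase at the outer membrane, differed in level by an order of magnitude. Mief1 (chromosome 15, 80118149–80138322, plus strand, 6 exons) was the lowest member, with 5.22, 5.34, 5.50 and 7.02 TPM in Young, 3.91, 4.65, 6.07 and 4.17 TPM in Fluo-4 normal and 5.58, 6.84, 4.66 and 5.07 TPM in Fluo-4 abnormal samples. Mief2 (chromosome 11, 60618117–60623778, plus strand, 4 exons) had 54.6, 63.6, 57.6 and 54.6 TPM in Young, 55.8, 61.5, 63.0 and 61.7 TPM in Fluo-4 normal and 64.0, 63.5, 57.0 and 58.5 TPM in Fluo-4 abnormal samples. All groups overlapped for both genes. Between abnormal and normal fibers Mief1 differed by 0.20 (limma, adjusted p = 0.462) and Mief2 by 0.0061 (adjusted p = 0.979), and the log2 ratio of Mief2 to Mief1 differed by -0.24 (exact permutation p = 0.171).

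The order of levels in young fibers was Fis1, Mfn2, Mff, Mfn1, Mief2, Opa1, Oma1, Dnm1l, Yme1l1 and Mief1. The samples of Mfn2 and Mff overlapped in each of the 3 groups, so their order is not fixed, and those of Opa1 and Oma1 overlapped in young fibers. In the aged groups Oma1, Opa1, Dnm1l and Yme1l1 formed a run of genes whose neighbors overlapped. The abnormal fibers were the group in which Mfn1 came down to Mief2, with 62.8 to 87.4 TPM against 57.0 to 64.0 TPM, whereas in the young and normal groups these genes stayed apart.

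Across the members, 7 were higher and 3 lower in abnormal than in normal fibers, and the median change was 0.052, against 0.10 over all genes tested. The directions depended on scaling: with TMM-type factors 9 of 10 members were lower and Mief1 alone was higher, the median of the members was -0.16 and that of all genes 0.0044, and the 1349 genes called, 1062 higher and 287 lower, became 358 higher and 564 lower. No member had groups that did not overlap, beside 14.0% of all genes. Between abnormal and young fibers the median was -0.030, against 0.074 over all genes, and Mfn1 was the 1 member without overlap, beside 16.2% of all genes. Between normal and young fibers 0 members passed the limma test, beside 1.15% of all genes, 0 had an unadjusted p-value under 0.05, beside 12.9%, and 0 did not overlap, beside 7.98%. There the adjusted p-values ran from 0.523 to 0.95. These 3 comparisons share samples, and a level in a sample cannot tell fewer cells holding an RNA from less RNA per cell.

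**Figure D3:**
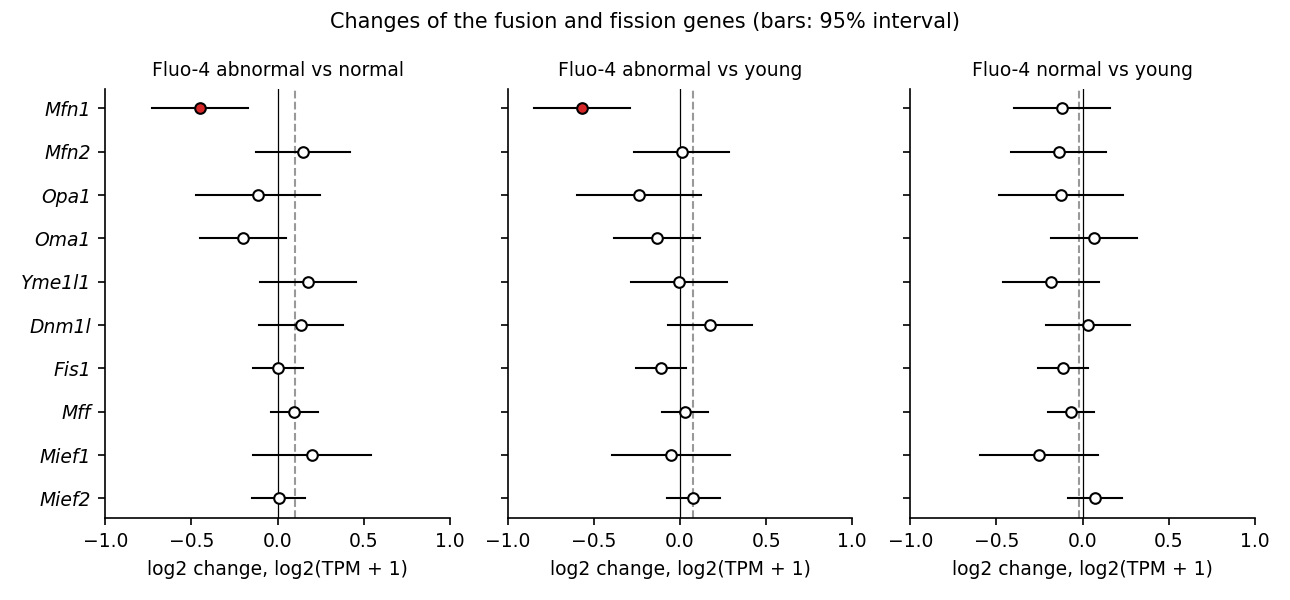
Change of each gene in log2(TPM + 1) for the 3 comparisons, with points at the limma estimate, bars for its 95% interval and a dashed line at the median of all genes tested. Filled red points mark an adjusted p-value under 0.05, reached by Mfn1 for abnormal against normal (-0.45) and against young fibers (-0.57).

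The nuclear genes of oxidative phosphorylation encode subunits of the respiratory chain and the ATP synthase in the same organelle. All 76 of the list were lower in abnormal than in normal fibers, and their median change was -0.39. Of them 59 passed the test, beside 1.99% of all genes called lower. Their mean log2(TPM + 1) was 9.40 to 9.69 in abnormal and 9.86 to 10.05 in normal samples, so the reference itself separated the groups. After this mean was subtracted within each sample, the median difference of the members was 0.44, against 0.49 over all genes tested. On this relative scale Mfn2 (0.54), Dnm1l (0.53), Mff (0.49), Mief1 (0.59) and Mief2 (0.40) were higher in every abnormal than in every normal sample, which makes 5 of 10 members beside 58.4% of all genes. Against young fibers Dnm1l (0.49), Mff (0.34) and Mief2 (0.39) did so, 3 of 10 beside 46.2% of all genes. Between normal and young fibers 0 of 10 members had groups that did not overlap, beside 6.31% of all genes. The shares of the members were not above those of all genes, so these counts show nothing particular to them, and no test is given. Mfn1 differed by -0.058 on this scale between abnormal and normal fibers, with an SD of 0.28 and 0.33 over the 4 samples of each. In a model that held the Myh4 share it differed by 0.26. Between abnormal and young fibers Mfn1 differed by -0.25 and between normal and young fibers by -0.20, with groups that overlapped in both.

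A further 26 genes are known to assist fusion or fission or to modify their proteins. Between abnormal and normal fibers 0 of them passed the test upward, beside 7.36% of all genes, and 1 downward, beside 1.99%. At an unadjusted p-value under 0.05 there were 6 of 26, beside 25.6% of all genes, and the median change was 0.064, against 0.10 over all genes. The gene that passed was Phb, which encodes prohibitin, an inner-membrane scaffold protein that affects the processing of Opa1. Its TPM was 108, 111, 104 and 107 in Young, 111, 119, 104 and 95.1 in Fluo-4 normal and 85.7, 78.9, 68.3 and 73.6 in Fluo-4 abnormal samples. All abnormal samples were below all others, with a change of -0.48 against normal (standard error 0.08, limma, adjusted p = 0.00405, and 0.0219 with the replicate number as a block). Against young fibers the change was -0.49 (adjusted p = 0.00322). With the Myh4 share as a covariate the change of Phb against normal was -0.42 (limma, adjusted p = 0.0555). Phb2, which encodes the other subunit of the prohibitin ring, differed by -0.016 (limma, adjusted p = 0.915) and stood at 103 ± 4.83 TPM in abnormal and 105 ± 5.80 TPM in normal fibers (SD, n = 4).

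The other 5 genes of lowest p-value did not pass. Marchf5, a ubiquitin ligase of the outer membrane, had a difference of 0.31 between abnormal and normal fibers (limma, adjusted p = 0.0505). It passed in 3 of 22 alternatives (lowest adjusted p = 0.0244), and was 0.10 with TMM-type factors (adjusted p = 0.535). Dnm2, a dynamin of membrane scission, differed by 0.33 (adjusted p = 0.0983) and by 0.13 with TMM-type factors, and Senp5, a SUMO protease, by 0.50 (adjusted p = 0.134) and 0.37 with those factors, from a level of 1.13 ± 0.331 TPM in normal fibers (SD, n = 4). Mtfr1l, a fission regulator-like gene, differed by 0.23 (adjusted p = 0.12). It passed with the replicate number as a block (adjusted p = 0.0357), whereas with TMM-type factors it was 0.014 (adjusted p = 0.937). Its relative Mtfr1 differed by -0.25 (adjusted p = 0.188), and with TMM-type factors it was -0.45 and passed (adjusted p = 0.0194). Against young fibers Mtfr1 was lower by -0.42 (limma, adjusted p = 0.035) and made up, with Phb, the 2 of 26 accessory genes called lower there, beside 2.41% of all genes, although that call was lost in 11 of 22 alternatives. Between normal and young fibers 0 of the 26 passed the limma test, beside 1.15% of all genes, and 2 had an unadjusted p-value under 0.05, beside 12.9%.

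Over the 12 samples and 5993 genes with a mean of at least 5 TPM, the genes whose log2(TPM + 1) followed Mfn1 most closely by Pearson correlation were Steap3 (0.953), Oxct1 (0.924), Rcan2 (0.918), H1f2 (0.915) and Pdha1 (0.908). Oxct1 encodes the enzyme that activates ketone bodies and Pdha1 a subunit of pyruvate dehydrogenase, both in mitochondria. Steap3 encodes a metalloreductase, Rcan2 a regulator of calcineurin and H1f2 a linker histone. The 12 samples share their groups, so these coefficients describe likeness of pattern and carry no test.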

How the data were processed

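RNA was measured in isolated EDL myofibers, with 4 samples per group, grouped by the sample titles. Libraries were made by the authors with the SMART-Seq v4 kit (10 ng of total RNA each). DRAGEN 4.3 was used for alignment on GRCm39 and for quantification, and the authors deposited TPM, 1 table per sample. The release of their gene annotation is not given in the sources used here. Counts were not used here, so precision is limited by the 4 samples per group and depth is unknown. Each table had 55487 rows, and 114 symbols on several rows were summed.

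Protein-coding and mitochondrially-encoded genes with a mean of at least 0.02 TPM in 1 group were tested (14428 genes). The log2(TPM + 1) values of the 3 groups entered 1 limma fit (version 3.58.1, R 4.3.3) that allowed a trend of variance on mean, and p-values were adjusted by Benjamini-Hochberg. Fold changes on this scale understate those of low genes. Ratios were tested by exact permutation, two-sided. The test code was run on simulated data first. Same-numbered normal and abnormal samples deviated together (correlations 0.302 to 0.438 over 5994 genes), which is the only source of the pairing used, since no label ties a number to a mouse. Near copies were searched with BLAST 2.17.0. Alternatives changed the scaling, pseudocount, filter, gene class, samples, block and Myh4 covariate.

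Levels relative to oxidative phosphorylation genes are described with no test. All 10 members were named, with the 6 accessory genes of smallest p-value, the 5 genes most like Mfn1 and the myosins. The members and the lists were chosen with earlier results of these data known. Protein sequences were not used here.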

Additional observations from a re-analysis of the deposited data

Results flagged for a closer look

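The 4 young samples of Mief1 were flagged because of 1 sample far from the others. Young sample 4 had 7.02 TPM, and the lowest of the group had 5.22 TPM. The gap from sample 4 to its nearest neighbor was 0.842 of the whole range of the group, above the Dixon limit of 0.829 for 4 samples. Of 39 groups checked, made of 10 members and 3 ratios in 3 groups, this was the 1 that passed, and chance flags about 1 in 20 such groups. Without young sample 4 the change of Mief1 between abnormal and young fibers was 0.031, and it did not pass the test with or without that sample.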

How the results depend on the processing

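In 22 alternatives per comparison, Mfn1 was lower in abnormal fibers throughout. Those that change only the filter, the gene class, the block or the samples of the third group cannot move the size of a change. On the log2 scale Mfn1 changed by -0.66 to -0.14 against normal fibers (adjusted p = 0.00235 to 0.604, limma). Against young fibers Mfn1 changed by -0.71 to -0.31 (adjusted p = 0.00116 to 0.487, limma). Its call was kept in 5 and lost in 17 alternatives against normal, and kept in 17 and lost in 5 against young. The number of members called between abnormal and normal fibers was 0 without a filter, with all annotated genes, with the 2 groups alone, with the replicate block, with the Myh4 covariate and with block and covariate together, and 0 to 1 when a sample was left out. Against young fibers it was 0 with block and covariate together and 0 to 1 when a sample was left out. The cause was not tested. With block and covariate together 0 genes were called in any comparison (limma; 2461, 1611 and 1630 at an unadjusted p-value under 0.05), so that fit says little about the members.

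The fits with the replicate block used only the samples of the 2 groups compared. Between abnormal and normal fibers 1150 genes were called with the block, against 566 with the 2 groups alone and 1349 in the main fit. Young samples share only a number with the others. With the block 684 genes were called between abnormal and young fibers (1263 with the 2 groups alone, 1227 in the main fit). Between normal and young fibers the block left 0 called (69 with the 2 groups alone, 166 in the main fit). There 1983 had an unadjusted p-value under 0.05 with the block. Same-numbered correlations ran from 0.005 to 0.183 for abnormal and young fibers. For normal and young fibers they ran from -0.081 to 0.228. Among the members and the accessory genes of smallest p-value, only Mfn1 and Mtfr1l differed in their call between the block fit and the main fit, for abnormal against normal fibers. The genes called between abnormal and normal fibers fell to 566 with the 2 groups alone, 820 with the Myh4 covariate and 606 without abnormal sample 2.

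The median change of the members against normal was -0.16 with TMM-type factors, 0.23 with the Myh4 covariate and 0.23 with block and covariate. Against young it was -0.16 and 0.073 with the first 2 of these. Signs of members that did not pass turned as follows. With TMM-type factors, against normal, Mfn2 was -0.065, Dnm1l -0.063, Fis1 -0.21, Mff -0.11, Mief2 -0.20 and Yme1l1 -0.021, and against young, Mfn2 was -0.14, Mff -0.12 and Mief2 -0.067. Without the mitochondrially-encoded genes, Fis1 was -0.056 and Mief2 -0.054 against normal, and Mfn2 -0.021 and Mff -1e-04 against young. With the Myh4 covariate, Opa1 was 0.28 against normal, Mief1 0.073 and Yme1l1 0.091 against young, and Dnm1l -0.056 between normal and young. With block and covariate, Opa1 was 0.32, Fis1 -0.074 and Oma1 0.065 against normal, Mff -0.0058, Mief1 0.34 and Mief2 -0.040 against young, and Dnm1l -0.037 between normal and young. When a sample was left out, Mief2 ranged from -0.032 to 0.035 and Fis1 from -0.042 to 0.051 against normal. Mfn2 then ranged from -0.084 to 0.063, Mief1 from -0.14 to 0.031 and Yme1l1 from -0.047 to 0.036 against young, and Dnm1l from -0.066 to 0.11, Mfn1 from -0.23 to 8e-04 and Opa1 from -0.24 to 0.042 between normal and young.

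Alternatives for the ratios and the relative levels were chosen after seeing the data, as were those for the accessory genes. In 11 of these the log2 ratio of Mfn2 to Mfn1 stayed between 0.55 and 0.65 for abnormal against normal and between 0.52 and 0.63 against young fibers. The replicate block among them cannot move such a difference. The relative level of Mfn1 for abnormal against normal ranged from -0.22 to 0.26 over 11 alternatives. The log2 ratio of Mief2 to Mief1 for abnormal against normal was -0.48 with the Myh4 covariate. Senp5 could not be tested with the 5 TPM filter. With 4 samples per group an exact permutation p cannot go below 0.0286, and without read counts the low members, such as Mief1, have no counting error attached.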
